A study of Mus musculus with 6 samples.

Results

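The Bcl2 family decides at the mitochondrion whether a lymphocyte lives or dies, and its transcripts were followed here in CD8+ T cells. The members were the genes Bcl2, Bcl2l1, Mcl1, Bcl2l11, Bbc3, Pmaip1, Bax, Bak1, Bad and Bid, each found by an exact match of its symbol to the platform annotation of the array. Of these 10 members, 9 had at least 1 probe set with that symbol alone, out of 18193 genes on the array with such a probe set. Bax was the member without one and is not analysed here. The 9 measured members had 29 probe sets, and the brightest of each gene by its mean over the arrays served as its main probe set, with the others as a check. All 9 main probe sets and 25 of the 29 probe sets passed the filter on dim signal, which required the median of the array on at least 2 of the 6 arrays. No main probe set needed the stimulated arrays or 1 genotype to pass, since each reached the median on all 6 arrays.

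The arrays were Affymetrix mouse 430 2.0 arrays, which measure messenger RNA with short probes near the 3' ends of transcripts. There was 1 array for each of 6 groups of naive splenic CD8+ T cells of strain C57/BL6: Nrdp1-/- cells untreated, Nrdp1-/- cells after 4 h and after 8 h of stimulation, and Nrdp1+/+ (wild-type) cells in the same 3 conditions. Stimulation was with anti-CD3 fixed to the culture surface at 5 µg/ml together with anti-CD28 in solution at 1 µg/ml, antibodies that engage the T cell receptor complex and its costimulatory receptor. The gene Rnf41 encodes Nrdp1, a ubiquitin ligase of the E3 type. The labels give neither the age or number of the mice, nor whether arrays share an animal, nor how the allele was made, and p-values therefore refer to variation among arrays, which may be technical.

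The proteins of this family fall into 3 classes. Survival proteins (Bcl2, Bcl2l1, which encodes Bcl-xL, and Mcl1) hold the pore-forming proteins Bax and Bak1 in check. BH3-only proteins (Bcl2l11, which encodes Bim, Bbc3, which encodes Puma, Pmaip1, which encodes Noxa, Bad and Bid) bind the survival proteins, and some of them also engage Bax and Bak1 directly, so that cytochrome c leaves the mitochondrion and caspases are activated. In T cells, Bcl2 is known for keeping resting and memory cells alive downstream of interleukin 7 and interleukin 15, Bcl-xL for its induction by CD28, and Bim for removing autoreactive and spent effector cells. Much of the family's control is on the protein, which these arrays do not measure.

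Promoter windows are shown for the 3 members whose calls with stimulation fell at different times: Bcl2, Bcl2l1 and Bcl2l11. The windows are those of RefSeq on build GRCm38.p6, from 250 bases before to 50 bases after a transcript start, 300 bases in all, and the lines read 5' to 3' on the gene's strand. Capitals mark matches to 3 of the motifs searched on both strands: GGGCGG of Sp1, GTAAACA of FOXO factors and the kappaB motif of NF-kappaB, given by name. The Bcl2 window lies at chr1:106714241-106714540 on the minus strand. The Bcl2l1 window, 1 of 3 for that gene, lies at chr2:152830668-152830967 on the minus strand, and the Bcl2l11 window, 1 of 2, at chr2:128125788-128126087 on the plus strand. For genes with several windows, the one with the most motif matches other than GGGCGG is shown.
Bcl2: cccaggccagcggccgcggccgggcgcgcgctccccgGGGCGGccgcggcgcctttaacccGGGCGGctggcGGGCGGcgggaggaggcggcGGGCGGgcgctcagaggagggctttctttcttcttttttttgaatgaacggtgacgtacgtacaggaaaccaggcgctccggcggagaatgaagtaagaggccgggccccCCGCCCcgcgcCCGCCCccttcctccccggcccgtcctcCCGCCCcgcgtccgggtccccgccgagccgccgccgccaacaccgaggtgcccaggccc
Bcl2l1: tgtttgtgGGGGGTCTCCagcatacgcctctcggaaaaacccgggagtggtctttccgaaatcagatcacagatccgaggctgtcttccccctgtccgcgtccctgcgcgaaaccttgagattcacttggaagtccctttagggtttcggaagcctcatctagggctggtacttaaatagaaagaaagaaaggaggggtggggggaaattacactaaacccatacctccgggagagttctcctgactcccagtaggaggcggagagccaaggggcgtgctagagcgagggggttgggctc
Bcl2l11: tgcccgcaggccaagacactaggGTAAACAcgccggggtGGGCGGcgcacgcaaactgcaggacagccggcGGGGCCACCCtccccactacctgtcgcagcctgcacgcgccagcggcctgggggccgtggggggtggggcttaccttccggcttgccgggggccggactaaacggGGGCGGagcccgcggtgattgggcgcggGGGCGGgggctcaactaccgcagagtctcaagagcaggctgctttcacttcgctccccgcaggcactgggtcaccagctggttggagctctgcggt

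The Bcl2 window was 76% G or C and held 7 matches to GGGCGG, a motif present in 35.7% of the 32851 RefSeq windows of the same length. The Bcl2l11 window was 71% G or C and held 1 match to GTAAACA at position -227 from the start, a motif present in 3.65% of all windows, 1 kappaB match at -179 and 3 matches to GGGCGG. The Bcl2l1 window was 55.7% G or C and held 1 kappaB match at -242, a motif present in 16% of all windows, while the median of all windows was 52.7% G or C. The other Bcl2l1 windows held no match to any motif searched, and since windows were picked by their matches, the shares over all windows are given for scale only. TTCNNNGAA of STAT factors (8.3% of all windows), TGANTCA of AP-1 (7.81%), TGACGTCA of CRE-binding factors (1.79%) and the E-box CACGTG (7.15%) were not found in any of these 3 windows. A match describes the letters only and is not evidence of a bound site.

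**Figure D1:**
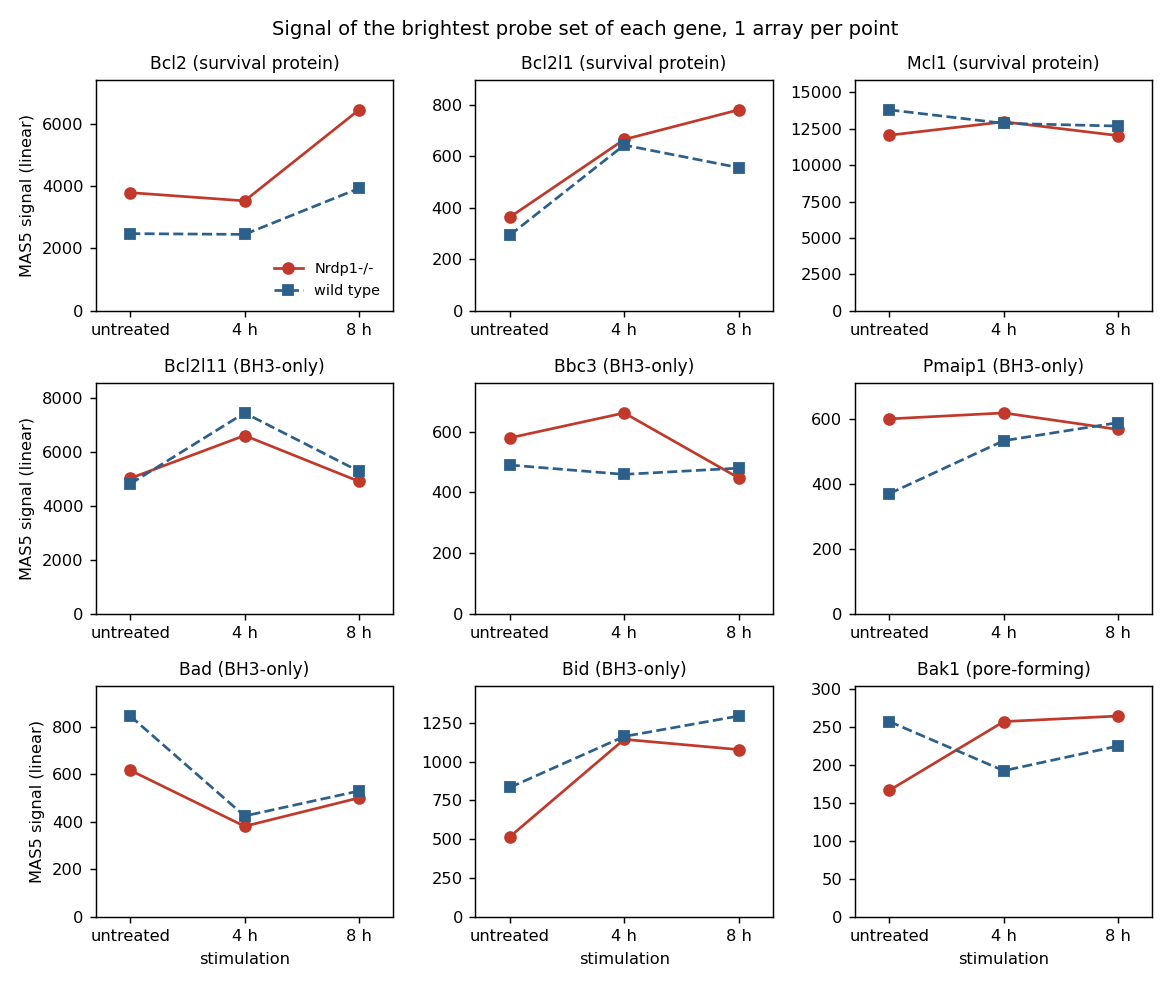
MAS5 signal (linear scale, each axis starting at 0) of the main probe set of each of the 9 measured members in untreated cells and after 4 h and 8 h of stimulation, with 1 array per point; red circles are Nrdp1-/- arrays and blue squares wild-type arrays. Bcl2 lies higher on the Nrdp1-/- array at every time, Bcl2l1 and Bid are higher on all 4 stimulated arrays than on either untreated array, and Bad is lower on all 4.

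At 4 h of stimulation, 4 of the 9 tested members had changed. Bcl2l1, Bid and Bcl2l11 were higher than in untreated cells and Bad was lower, while Bcl2 and Mcl1 showed no change past the threshold. Genes called at a limma adjusted p under 0.05 made up 13.5% of the 10838 genes tested, with 8.01% higher and 5.51% lower, against 3 members higher and 1 lower. The median change of the members was 0.10 and that of all genes -0.05 on the log2 scale. Changes are given as log2 differences of signal with their standard error (SE, 6 arrays), from a model with time and genotype as additive terms.

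At 8 h, again 4 of the 9 members had changed: Bcl2, Bcl2l1 and Bid were higher than in untreated cells and Bad was lower. Of all genes 19.1% were called at this time, 9.88% higher and 9.26% lower. The median change of the members was 0.23, and of all genes -0.07, on the log2 scale. Between 4 h and 8 h, 1 member, Bcl2, was called, and it was higher at 8 h, where 5 of 10838 genes were called (0.0461%), 2 of them higher (0.0185%) and 3 lower (0.0277%). These calls rest on the intensity trend that limma fits to the variance. Without the trend no member was called in any of the 3 comparisons (limma, adjusted p = 0.0835 to 0.136 at 4 h and 0.0719 to 0.142 at 8 h for the called members, and 0.63 for Bcl2 between the times).

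**Figure D2:**
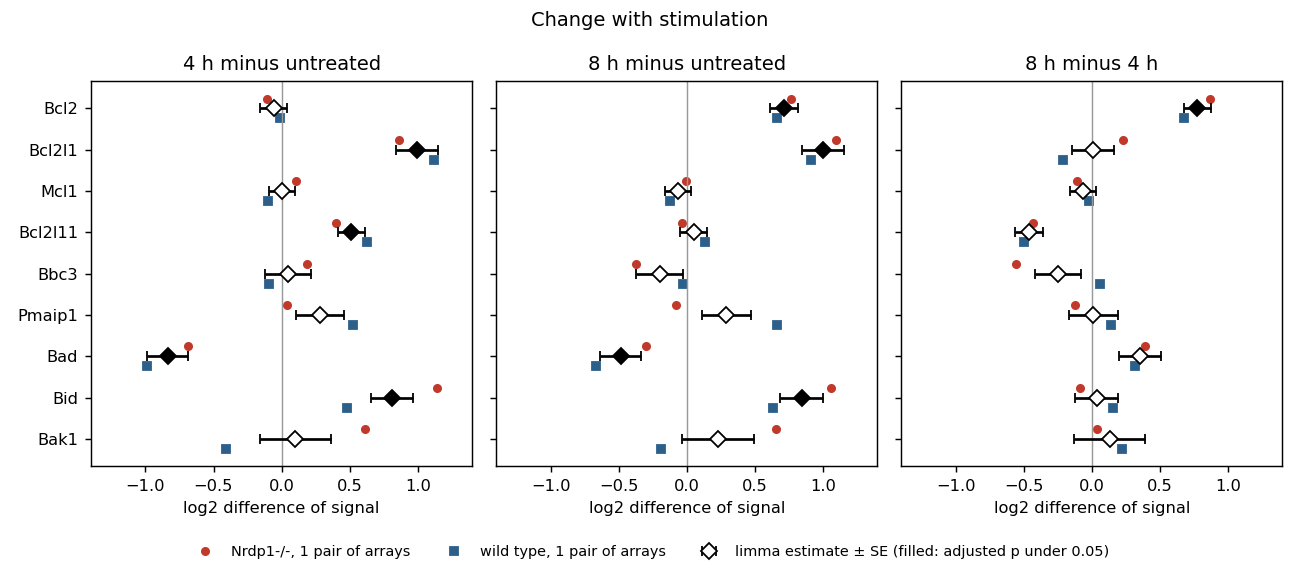
Log2 change of the main probe set of each member at 4 h and at 8 h against untreated cells and at 8 h against 4 h, in 3 panels; diamonds are limma estimates over both genotypes with bars of 1 SE (6 arrays), filled where the adjusted p is under 0.05, red circles are Nrdp1-/- cells and blue squares wild-type cells (1 pair of arrays each). Bcl2 stays near 0 at 4 h and lies at 0.72 at 8 h, Bcl2l11 lies at 0.51 at 4 h and near 0 at 8 h, and Bcl2l1 and Bid lie between 0.81 and 1.00 at both times.

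Among the survival proteins, Bcl2 was called at 8 h and not at 4 h. Its signal was 3787 in untreated Nrdp1-/- cells, 3523 at 4 h and 6445 at 8 h, and 2471, 2447 and 3925 at the same times in wild-type cells. In both genotypes the untreated and 4 h arrays were close to each other and the 8 h array stood above both. The log2 change was -0.06 ± 0.10 at 4 h (limma, adjusted p = 0.768) and 0.72 ± 0.10 at 8 h (limma, adjusted p = 8.19e-04), which is 1.64-fold. Between 4 h and 8 h Bcl2 rose by 0.78 ± 0.10 (limma, adjusted p = 0.0279), and it ranked 4 of 10838 genes by p in that comparison. The separate changes from 4 h to 8 h were 0.87 in Nrdp1-/- cells and 0.68 in wild-type cells.

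The other 4 Bcl2 probe sets were called at 8 h as well. At 4 h, changes were positive on 4 of the 5 probe sets, at -0.06 to 0.38 over all 5, and 0 of 5 were called when tested on their own (limma, lowest adjusted p = 0.0862). When every probe set of the array was tested on its own, all 5 were higher at 8 h than in untreated cells, by 0.71 to 0.98 (limma, adjusted p = 8.01e-04 to 0.0319). The difference between 8 h and 4 h was positive on all 5, at 0.54 to 0.95, but 0 of 5 passed the threshold in that larger family of tests (limma, adjusted p = 0.142 to 0.579). The mean of the probe sets also gave 0.69 for this difference (limma, adjusted p = 0.142), so the call of the step after 4 h was lost under both of these alternatives.

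Bcl2l1, whose product Bcl-xL is the costimulation-induced survival protein, was high by 4 h. Its signal was 363, 666 and 781 in Nrdp1-/- cells untreated, at 4 h and at 8 h, against 294, 644 and 557 in wild-type cells. All 4 stimulated arrays lay above both untreated arrays. The log2 change was 0.99 ± 0.16 at 4 h (1.99-fold, limma, adjusted p = 0.00172) and 1.00 ± 0.16 at 8 h (2.00-fold, limma, adjusted p = 0.00141), with 0.01 ± 0.16 between the times. The other 3 Bcl2l1 probe sets were below the median on every array and were not tested, and when all its probe sets were averaged the change was 0.95 at 4 h and 0.90 at 8 h without a call (limma, adjusted p = 0.182 at both times).

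Mcl1, a survival protein with a short-lived transcript and protein, was not called with stimulation, and its main probe set was nearly flat. Its signal was 12057, 12979 and 12031 in Nrdp1-/- cells untreated, at 4 h and at 8 h, against 13801, 12874 and 12686 in wild-type cells, a span of 0.20 on the log2 scale. The change was 0.00 ± 0.10 at 4 h and -0.06 ± 0.10 at 8 h (limma, adjusted p = 0.989 and 0.699), and the 95% interval at 4 h began at -0.21. None of its 6 probe sets was called in any of these comparisons, with changes of -0.02 to 0.27 at 4 h and -0.08 to 0.32 at 8 h (limma, adjusted p = 0.139 or above at 8 h). Among 7 tested regulators of Mcl1 turnover, the deubiquitinase Usp9x fell by 0.42 ± 0.12 at 4 h and by 0.37 ± 0.12 at 8 h (limma, adjusted p = 0.0388 and 0.0487), and the other 6 were not called. The shares called over all genes were 13.5% at 4 h and 19.1% at 8 h. Without the trend 0 of the 7 were called at 4 h and 0 at 8 h, so the Usp9x calls were lost. Between genotypes 0 of these 7 were called by limma, and 0 without the trend. An unadjusted p under 0.05 was found for 1 of them, against 1791 of the 10838 genes tested.

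**Figure D3:**
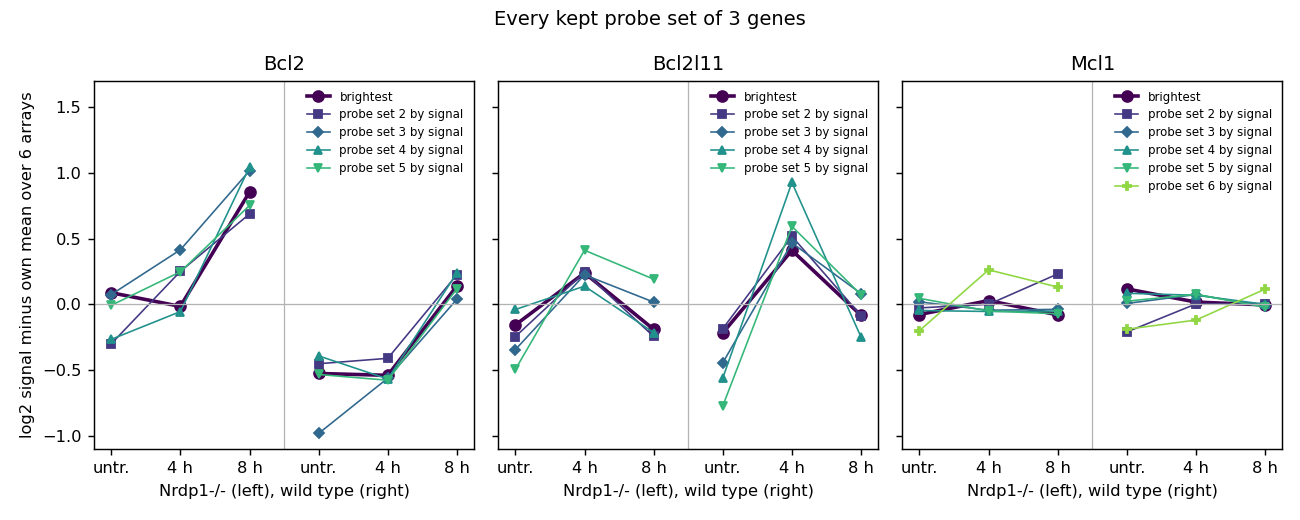
Log2 signal of every probe set that passed the filter for Bcl2 (5), Bcl2l11 (5) and Mcl1 (6), each minus its own mean over the 6 arrays, with Nrdp1-/- arrays on the left and wild-type arrays on the right of each panel. All 5 Bcl2 probe sets are highest at 8 h and higher on Nrdp1-/- arrays, all 5 Bcl2l11 probe sets are higher at 4 h than untreated, and those of Mcl1 had changes of -0.02 to 0.27 at 4 h and -0.08 to 0.32 at 8 h.

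Among the BH3-only genes, Bcl2l11 was called at 4 h and not at 8 h. Its signal was 5017, 6604 and 4903 in Nrdp1-/- cells untreated, at 4 h and at 8 h, against 4812, 7440 and 5278 in wild-type cells. The 4 h array was the highest of the 3 in both genotypes. The change was 0.51 ± 0.10 at 4 h (1.43-fold, limma, adjusted p = 0.00674) and 0.05 ± 0.10 at 8 h (limma, adjusted p = 0.772). The difference of 8 h from 4 h, -0.46 ± 0.10, was not called (limma, adjusted p = 0.143). Tested on their own, 4 of 5 probe sets were higher at 4 h and all 5 had positive changes of 0.51 to 1.14 (limma, highest adjusted p = 0.107). At 8 h the 5 changes were 0.05 to 0.77 and 0 of 5 were called (limma, lowest adjusted p = 0.0521), the main probe set having the smallest. Without the untreated wild-type array the change at 4 h was 0.41 and lost its call. Without either untreated array the difference of 8 h from 4 h gained a call (limma, adjusted p = 0.0479 without the Nrdp1-/- array and 0.0475 without the wild-type array). Its estimate stayed at -0.46, since untreated arrays do not enter this difference. Over all genes the calls in this comparison went from 5 to 120 and 124 in the same fits.

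Bid, which is cut by caspase 8 and so links death receptors to the mitochondrion, was higher at both times. Its signal was 516, 1143 and 1077 in Nrdp1-/- cells untreated, at 4 h and at 8 h, against 833, 1162 and 1294 in wild-type cells. The lowest stimulated array, 1077, was above the highest untreated array, 833. The change was 0.81 ± 0.16 at 4 h (1.75-fold, limma, adjusted p = 0.00598) and 0.84 ± 0.16 at 8 h (1.80-fold, limma, adjusted p = 0.0039). Its other 2 probe sets also had positive changes at both times, as low as 0.37 at 4 h and 0.23 at 8 h, and neither was called on its own. Without the untreated Nrdp1-/- array the change at 4 h was 0.54 (limma, adjusted p = 0.0789), and with all probe sets averaged it was 0.58 at 4 h and 0.45 at 8 h (limma, adjusted p = 0.116 and 0.193).

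Bad, a BH3-only protein that survival kinases such as Akt phosphorylate and hold inactive, was the member that fell. Its signal was 616, 381 and 500 in Nrdp1-/- cells untreated, at 4 h and at 8 h, against 844, 424 and 529 in wild-type cells. All 4 stimulated arrays lay below both untreated arrays, and in both genotypes the 8 h array lay between the untreated and the 4 h array. The change was -0.84 ± 0.15 at 4 h (limma, adjusted p = 0.00415) and -0.48 ± 0.15 at 8 h (limma, adjusted p = 0.0463). Its second probe set had -0.66 at 4 h and -0.19 at 8 h without a call (limma, adjusted p = 0.0639 and 0.579). The change at 4 h lost its call without the untreated wild-type array (-0.67, limma, adjusted p = 0.0548), and the change at 8 h without any 1 of 4 arrays, the untreated and 8 h arrays of both genotypes (-0.65 to -0.32, limma, adjusted p = 0.0603 to 0.463), and under 5 other settings: quantile normalization (adjusted p = 0.065), no filter (0.0795), the mean of probe sets (0.228), each probe set on its own (0.076) and no trend (0.142). It was called under 6 of 15 alternatives.

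Bbc3 and Pmaip1, BH3-only genes known as p53 targets, were not called. The Bbc3 signal was 580, 662 and 448 in Nrdp1-/- cells untreated, at 4 h and at 8 h, against 490, 459 and 480 in wild-type cells, with changes of 0.05 ± 0.17 at 4 h and -0.20 ± 0.17 at 8 h (limma, adjusted p = 0.897 and 0.457). The Pmaip1 signal was 599, 617 and 567 in Nrdp1-/- cells, against 369, 532 and 588 in wild-type cells, with 0.28 ± 0.18 at 4 h and 0.29 ± 0.18 at 8 h (limma, adjusted p = 0.346 and 0.294). The untreated wild-type array was the low one for Pmaip1, and the other 5 lay within 532 and 617.

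Bak1, the measured pore-forming member, had 167, 258 and 265 in Nrdp1-/- cells untreated, at 4 h and at 8 h, against 258, 193 and 225 in wild-type cells. The stimulated arrays were above the untreated array in Nrdp1-/- cells, by 0.61 and 0.65, and below it in wild-type cells, by -0.41 and -0.19. Over both genotypes the change was 0.10 ± 0.26 at 4 h and 0.23 ± 0.26 at 8 h (limma, adjusted p = 0.858 and 0.589). A second Bak1 probe set was below the median on all arrays and was not tested.

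Between genotypes, 1 of the 9 tested members was called: Bcl2 was higher in Nrdp1-/- cells. The test asked which members differ without Nrdp1 over the 3 conditions together. Of all genes 5.05% were called, 2.47% higher and 2.57% lower, and the median difference of the members was 0.01 against -0.01 for all genes on the log2 scale. On their main probe sets Bcl2 and Bcl2l1 were higher in Nrdp1-/- cells at all 3 times, as were 17.4% of all genes. Bad and Bid were lower at all 3 times on theirs, as were 20.2%. The second Bad probe set was higher in Nrdp1-/- cells at 8 h, by 0.30. Of the other Bid probe sets, 1 was higher at 8 h, by 0.11, and 1 untreated and at 8 h, by 0.25 and 0.15. The remaining values of these dimmer probe sets were negative.

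Bcl2 was 0.61 higher in untreated Nrdp1-/- cells than in untreated wild-type cells, 0.53 higher at 4 h and 0.71 higher at 8 h on the log2 scale, where single-time differences have no replicate check. The lowest Nrdp1-/- array, 3523 at 4 h, was below the highest wild-type array, 3925 at 8 h, so the genotypes overlap across times and separate within each. The mean difference was 0.62 ± 0.08 (1.54-fold, limma, adjusted p = 0.00107), and it was 0.57 to 0.66 when each array was left out in turn. Fits with an array left out have fewer residual degrees of freedom and lean more on the variance trend, so only their estimates are given. On the 4 stimulated arrays alone the difference was 0.62. That is also the estimate without either untreated array, whose partner then adds nothing to the genotype difference, so it is not a separate check. All 5 Bcl2 probe sets were higher in Nrdp1-/- cells at every time, with mean differences of 0.43 to 1.00, and 3 of the 5 passed the threshold on their own (limma, highest adjusted p = 0.0941). Without the intensity trend the difference lost its call (limma, adjusted p = 0.0976).

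The remaining members did not pass the threshold between genotypes. Bcl2l1 differed by 0.28 ± 0.13 (limma, adjusted p = 0.302) and Pmaip1 by 0.28 ± 0.15 (limma, adjusted p = 0.377), while Bbc3 had 0.22 ± 0.14 and Bak1 0.01 ± 0.22. Bid had -0.32 ± 0.13 (limma, adjusted p = 0.218), with a single-time difference of -0.69 in untreated cells. It was called lower without the 4 h Nrdp1-/- array or without the 4 h wild-type array (-0.48 in each case, limma, adjusted p = 0.0398 and 0.0421). Both fits give the same estimate, since a 4 h array without its partner adds nothing to the genotype difference. Bad had -0.23 ± 0.12 (limma, adjusted p = 0.402), Bcl2l11 -0.07 ± 0.08 and Mcl1 -0.09 ± 0.08. The 95% interval for Mcl1 ran between -0.26 and 0.09, and a missed threshold does not show that the genotypes were alike.

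**Figure D4:**
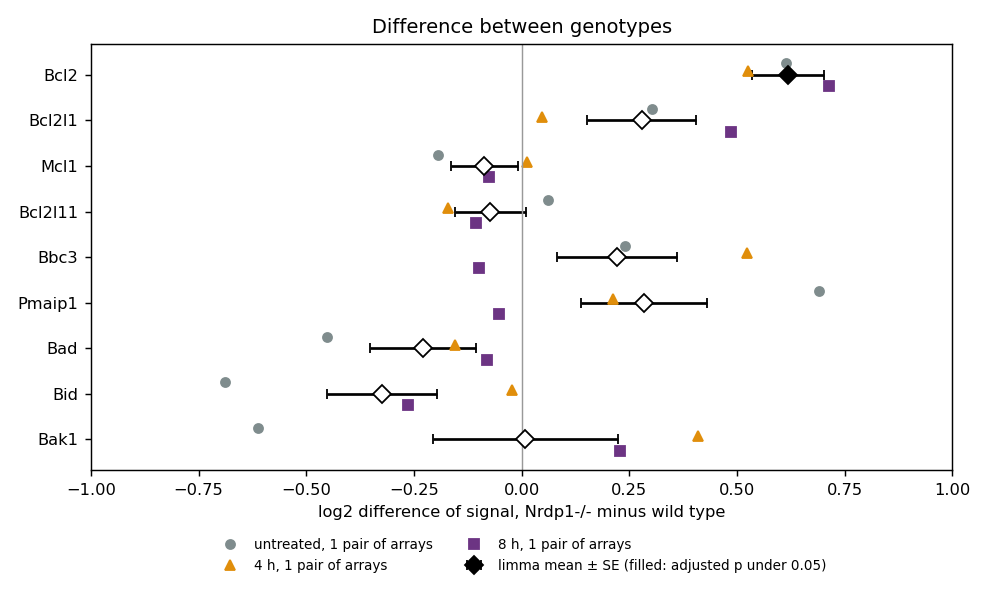
Log2 difference of the main probe set in Nrdp1-/- minus wild-type cells for each member, as the value at each time (1 array of each genotype; grey circles untreated, orange triangles 4 h, purple squares 8 h) and the limma mean over the 3 times as a diamond with bars of 1 SE (6 arrays), filled where the adjusted p is under 0.05. Bcl2 lies at 0.62, with all 3 times between 0.53 and 0.71, and is the filled one.

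A test of whether stimulation acted differently in Nrdp1-/- and wild-type cells called 0 of the 9 members, where 0.221% of all genes were called, 0.0923% in the positive and 0.129% in the negative direction. At an unadjusted p under 0.05 there were 3 members, Bak1 (0.93 ± 0.45), Bid (0.54 ± 0.27) and Pmaip1 (-0.61 ± 0.31), against 406 of the 10838 genes tested. The other Bid probe sets had 0.31 and -0.22 in this test. All 3 members had a limma adjusted p of 1.00. The counts of called members were also 0 without the trend and with the spread of the additive model. This difference was 0.01 ± 0.23 for Bcl2, the change on stimulation in Nrdp1-/- cells minus that in wild-type cells.

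Marker transcripts of several cell types differed between genotypes, and their values are given here. Between genotypes 2.47% of all genes were called higher and 2.57% lower. Of 12 tested markers of memory-like CD8 T cells, a state that expresses Bcl2, 9 were higher in Nrdp1-/- cells and 0 lower, and their summed signal was 59788 to 67328 on Nrdp1-/- arrays and 49646 to 57781 on wild-type arrays. The marker lists were not counted without the intensity trend. Eomes and Fasl, which are among these markers, were not called between genotypes without it. Of 10 tested B cell markers 9 were lower and 1 was higher, with Ms4a1 at 255 to 403 on Nrdp1-/- arrays and 2346 to 2930 on wild-type arrays. The B cell list summed to 25277 to 34850 on Nrdp1-/- arrays and 32908 to 37059 on wild-type arrays, a sum led by the immunoglobulin gene Ighm, the marker that was higher (22231 to 31757 on Nrdp1-/- arrays and 18512 to 20352 on wild-type arrays). Without Ighm the other 11 markers summed to 3047 to 3326 on Nrdp1-/- arrays and 14396 to 16706 on wild-type arrays. Of 13 tested myeloid markers 6 were higher and 0 lower, with sums of 3230 to 13433 on Nrdp1-/- arrays and 2001 to 2131 on wild-type arrays, and on Nrdp1-/- arrays the sum was 13433, 8689 and 3230 from untreated to 8 h. No marker was at exactly 0, and 1 of 12 B cell and 1 of 14 myeloid markers lay below the median on all arrays. The 4 natural killer cell markers summed to 562 to 1095 on Nrdp1-/- arrays and 492 to 558 on wild-type arrays. That sum was led by Tyrobp, at 808, 505 and 259 on Nrdp1-/- arrays from untreated to 8 h and 236 to 274 on wild-type arrays. The ranges of each of the other natural killer cell markers overlapped between genotypes, and 0 of 3 tested were called. The part of these cells in the member values was not tested, and in bulk RNA fewer cells of a type and less RNA per cell cannot be told apart.

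The 9 CD8 T cell identity markers were at or above the array median on all arrays, at summed signals of 77919 to 91259 on Nrdp1-/- arrays and 80703 to 92529 on wild-type arrays, and Cd4 was below the median throughout, at 6.06 to 15.7. The extraction text names colon, at odds with the titles. Of 12 colon epithelium markers 7 lay below the median on all arrays, with summed signals of 865 to 1157 on Nrdp1-/- arrays and 917 to 1228 on wild-type arrays, as did 4 of 7 smooth muscle markers. Of 3 tested colon markers, Epcam was lower in Nrdp1-/- cells, by -1.06 ± 0.15 (limma, adjusted p = 0.00141). Car1 had 135 to 286 on Nrdp1-/- arrays and 33.9 to 36.4 on wild-type arrays, and passed the filter only through Nrdp1-/- arrays. The treatment label of the stimulated arrays names anti-CD28 only, whereas the protocol names both antibodies. Of 4 Rnf41 probe sets the brightest had -0.36 ± 0.12 between genotypes (limma, adjusted p = 0.128) and 1 dimmer one had -1.25 ± 0.27 when tested on its own (limma, adjusted p = 0.0316). It is not known here which of them the deletion removes, so they do not settle the labels. Array medians were 61.5 to 68.6, and ratios of 3' to 5' probes were 0.815 to 0.894 for Gapdh.

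Around the family, no other Bcl2 relative was called with stimulation. For the list counts that follow, the shares called over all genes were 13.5% at 4 h, 19.1% at 8 h and 5.05% between genotypes. Of 15 tested relatives 0 were called by limma at 4 h and 0 at 8 h. Of the 15, 1 had an unadjusted p under 0.05 at each time, against 2991 of the 10838 genes tested at 4 h and 3513 at 8 h. Without the trend 0 were called. Between genotypes 1 was called, the BH3-only gene Bik, whose signal was 232, 206 and 202 in Nrdp1-/- cells untreated, at 4 h and at 8 h, against 83.7, 109 and 42.4 in wild-type cells. Every Nrdp1-/- array lay above every wild-type array, and the difference was 1.48 ± 0.29 (limma, adjusted p = 0.0113). Without the trend 0 relatives were called between genotypes, so this call was lost. At an unadjusted p under 0.05 there were 5 of the 15 between genotypes, against 1791 of the 10838 genes tested.

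Downstream of the mitochondrion, 1 of 10 tested apoptosome and caspase genes was higher and 1 lower at 4 h, and 1 was higher and 2 lower at 8 h. These counts lay near the shares over all genes, 13.5% at 4 h and 19.1% at 8 h. Cycs, which encodes the cytochrome c that is released, rose by 0.67 ± 0.12 at 4 h and 1.13 ± 0.12 at 8 h (limma, adjusted p = 0.00469 and 1.45e-04). Apaf1, the scaffold that cytochrome c assembles, fell by 0.52 ± 0.12 at 4 h and by 0.41 ± 0.12 at 8 h (limma, adjusted p = 0.0148 and 0.0326), and Casp9, the caspase it activates, fell by 0.75 ± 0.17 at 8 h (limma, adjusted p = 0.0105). All of these calls were lost without the trend, with 0 called at 4 h and 0 at 8 h. Between genotypes 0 of 10 were called by limma, and 0 without the trend. An unadjusted p under 0.05 was found for 2 of them, against 1791 of the 10838 genes tested.

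Of 11 inhibitor of apoptosis proteins and their antagonists, 2 were higher at 4 h, and 2 were higher and 1 lower at 8 h. These were Xaf1, an antagonist of Xiap, at 1.07 ± 0.16 and 1.47 ± 0.16, and Birc3, an inhibitor induced by NF-kappaB, at 0.58 ± 0.11 and 0.40 ± 0.11, with the mitosis-linked Birc5 at -0.74 ± 0.22 at 8 h (limma, highest adjusted p = 0.0409). In Nrdp1-/- cells Naip2 was lower, by -1.09 ± 0.24 (limma, adjusted p = 0.023). Without the trend 0 genes of this list were called at 4 h, 0 at 8 h and 0 between genotypes. With it, the counts on stimulation lay near the shares over all genes, 13.5% at 4 h and 19.1% at 8 h.

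Of 12 death receptor genes, Fas, the receptor, and Fasl, its ligand, were higher at 4 h, by 0.95 ± 0.15 and 0.83 ± 0.21 (limma, adjusted p = 0.00158 and 0.0248). At 8 h 1 was higher, Fasl, and 2 were lower, the IgM receptor gene Fcmr at -0.96 ± 0.20 and the adaptor Traf1 at -0.41 ± 0.10. In Nrdp1-/- cells Fasl was higher by 0.68 ± 0.17 and Fcmr lower by -3.35 ± 0.16 (limma, adjusted p = 0.0476 and 3.94e-07). Fcmr is a B cell gene, and its signal was 214, 284 and 90.3 in Nrdp1-/- cells, against 2206, 2106 and 1342 in wild-type cells. Without the trend 0 genes of this list were called at 4 h and 0 at 8 h, and 1 was called lower between genotypes, so the Fas and Fasl calls were lost. With it, the counts on stimulation lay near the shares over all genes, 13.5% at 4 h and 19.1% at 8 h.

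In the p53 arm, 2 of 13 genes were higher and 2 lower at 4 h, and 3 higher and 3 lower at 8 h. The cell cycle inhibitor Cdkn1a rose by 1.72 ± 0.21 at 4 h and 1.74 ± 0.21 at 8 h, and the nuclease gene Aen by 1.13 ± 0.13 and 0.89 ± 0.13 (limma, highest adjusted p = 0.00111). The p53 inhibitor Mdm4 fell by 0.48 ± 0.10 and 0.58 ± 0.10 and the stress gene Sesn1 by 0.42 ± 0.12 and 0.76 ± 0.12 at 4 h and 8 h. At 8 h Sesn2 was also higher, at 1.37 ± 0.30, and Mdm2 lower, at -0.42 ± 0.12. Cdkn1a was higher in Nrdp1-/- cells by 0.88 ± 0.17 and Zmat3, a p53-induced RNA-binding protein gene, by 0.54 ± 0.12, while Sesn1 was lower by -0.49 ± 0.10 (limma, adjusted p = 0.011, 0.0248 and 0.0159). Without the trend 1 gene of this list was called at 4 h, 1 at 8 h and 0 between genotypes.

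Among survival cytokine receptors and kinases, 6 of 17 genes were higher and 1 lower at 4 h, and 7 higher and 3 lower at 8 h. Il2ra, the high-affinity subunit of the interleukin 2 receptor, had a signal of 59.4, 804 and 1702 in Nrdp1-/- cells, against 32.5, 545 and 916 in wild-type cells, and both untreated arrays were below the array median. It passed the filter through the stimulated arrays, on which it was high, so no fold change is given. Il2ra is among the 6 and the 7 genes counted higher, so those counts are in part fixed by the filter. Il15ra rose by 1.34 ± 0.20 at 4 h and 1.95 ± 0.20 at 8 h. Pim2, a survival kinase that can phosphorylate Bad, rose by 2.11 ± 0.11 and 2.29 ± 0.11 (limma, highest adjusted p for both genes = 0.00132). Stat5a, which transmits interleukin 2 and 7 signals, rose by 0.99 ± 0.14 and 1.29 ± 0.14, and its relative Stat5b fell by 0.35 ± 0.10 and 0.54 ± 0.10. Between genotypes 2 genes were called, and both were higher in Nrdp1-/- cells: Il15ra by 0.74 ± 0.16 (limma, adjusted p = 0.0244) and Il2ra (limma, adjusted p = 0.0105). Without the trend 2 genes of this list were called at 4 h, 2 at 8 h and 0 between genotypes.

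Of 16 transcription factors known to act on the family, 7 were higher and 2 lower at 4 h, and 8 were higher and 2 lower at 8 h. The NF-kappaB subunits Nfkb2, Relb and Rel rose by 1.76 ± 0.15, 1.43 ± 0.11 and 1.03 ± 0.20 at 4 h, with 1.16 ± 0.15, 0.83 ± 0.11 and 0.77 ± 0.20 at 8 h. Foxo1, a factor of the FOXO class that drives Bcl2l11 in cytokine-deprived cells, fell by 0.43 ± 0.11 at both times, Foxo4 by 0.90 ± 0.24 at 4 h and Foxo3 by 0.41 ± 0.12 at 8 h (limma, highest adjusted p = 0.0346). Tbx21 (1.09 ± 0.17), Eomes (0.78 ± 0.11) and Id2 (0.77 ± 0.13), which take part in effector and memory differentiation, were higher in Nrdp1-/- cells (limma, highest adjusted p = 0.00499). Eomes and Fasl also stand in the list of memory-like markers, and Id2 had 4372, 5004 and 6210 in Nrdp1-/- cells, against 2158, 4104 and 3067 in wild-type cells. Without the trend 2 of these factors were called at 4 h, 0 at 8 h and 0 between genotypes. None of these 8 gene lists had a limma call between 8 h and 4 h, with or without the trend. In that comparison 0 to 5 genes per list had an unadjusted p under 0.05, against 907 of the 10838 genes tested.

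The genes whose pattern over the 6 arrays was nearest to that of a member were found by the Euclidean distance of log2 values centred on their own mean, among 10838 genes, for the 4 members that spanned more than 1 on that scale. For Bcl2 these were Acot7 at a distance of 0.22, Dtl at 0.33 and Thg1l at 0.40. Dtl was dim, below the array median on the untreated and 4 h wild-type arrays (50.6 and 53.6) and near it on the 4 h Nrdp1-/- array (61.8). Acot7 had 695, 675 and 1016 in Nrdp1-/- cells untreated, at 4 h and at 8 h, against 451, 441 and 737 in wild-type cells. Its late step and genotype order, the same as those of Bcl2, follow from picking by nearness on these same 6 arrays. For Bcl2l1 they were Pinx1 at 0.07, Spred1 at 0.14 and Utp6 at 0.17. For Bad they were Ncln at 0.21, Akap12 at 0.22 and Atg9a at 0.22, and for Bid 3110021A11Rik at 0.27, Dnajc27 at 0.31 and Ppp1r16b at 0.31. The signal of 3110021A11Rik was below the array median on both untreated arrays and on the 4 h Nrdp1-/- array. This gene passed the filter only through stimulated arrays, on which it was higher.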

How the data were processed

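The authors deposited linear signal intensities from MAS5, per the submitters' processing notes, and its version is not given in the sources used here. The trimmed mean of the values (2% cut at either end) was 500.0 on each array, so a shift of most transcripts one way would be hidden. Of 45101 probe sets, 64 controls were left out. In the platform annotation 34945 of the others had 1 symbol, 932 several and 9160 none or no entry, and 34741 matched RefSeq by Entrez identifier. Groups came from the sample titles. Values were taken as log2(intensity + 4.45), the 10th percentile of all deposited values, which understates changes of dim genes, with the brightest probe set per gene. Genes at the median of the array on at least 2 arrays were kept. limma 3.58.1 in R 4.3.3 (lmFit, eBayes with intensity trend, Benjamini-Hochberg over 10838 genes, threshold 0.05) fitted time and genotype additively with 2 residual and 8.99 prior degrees of freedom. The genotype-by-stimulation term left 1 residual degree of freedom, with infinite prior degrees of freedom. The residual spread of a gene is how its genotype difference varies over the 3 times. limma draws it toward the variance trend over all genes, which has the larger weight (8.99 against 2 degrees of freedom). The number of arrays limits precision.

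All members were named, with up to 4 called genes per list, direction and comparison and the 3 nearest genes in pattern. A few further called list genes were named after their values were seen. The members and lists were chosen with earlier results of these data known. Alternatives were quantile normalization, median centring, pseudocounts of 1 and 24.3, no filter and a 70th percentile filter, the mean of probe sets, each probe set on its own, no trend, the 4 stimulated arrays alone, the spread of the additive model for the interaction and leaving out each array.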

Additional observations from a re-analysis of the deposited data

Results flagged for a closer look

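Bak1, which encodes a pore-forming protein, had changes of opposite sign in the 2 genotypes on stimulation, each between single arrays. Against the untreated array of the same genotype its main probe set was higher by 0.61 at 4 h and 0.65 at 8 h in Nrdp1-/- cells, and had -0.41 and -0.19 in wild-type cells, on the log2 scale. The difference between these responses was 0.93 ± 0.45 (SE, 6 arrays), with an unadjusted p of 0.0369 and a limma adjusted p of 1.00, and it did not pass the correction over all genes. Both changes of a genotype are taken against its single untreated array, whose signal was 167 in Nrdp1-/- cells and 258 in wild-type cells.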

How the results depend on the processing

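Of 634 member values under the alternatives, 567 kept their direction and their side of the threshold, 27 lost a call, 4 gained one and 36 changed sign, none of them a called value. The limma calls rest on the intensity trend: without it the number of members called was 0 at 4 h, 0 at 8 h, 0 between 8 h and 4 h and 0 between genotypes. Over all genes the calls without the trend numbered 87 at 4 h against 1465 with it, 108 against 2075 at 8 h and 99 against 547 between genotypes. The mean of probe sets called 2 members at 4 h, 1 at 8 h and 0 between 8 h and 4 h, and each probe set tested on its own called 0 in the last. Leaving out each array in turn gave 2 to 4 members called at 4 h, 3 to 4 at 8 h, 1 to 2 between 8 h and 4 h and 1 to 2 between genotypes, and was not run for the interaction, which it leaves without residual degrees of freedom. Median centring moved the median change of all genes at 8 h to -0.11, against -0.07.

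Signs changed for uncalled values, and the cause was not tested. With quantile normalization Mcl1 at 4 h was -0.021. With median centring the 8 h minus 4 h change was -0.049 for Bcl2l1, -0.049 for Pmaip1 and -0.024 for Bid. With the mean of probe sets Bcl2 at 4 h was 0.15, Mcl1 at 8 h 0.054 and Bak1 at 8 h -0.10, the 8 h minus 4 h change was -0.049 for Bcl2l1, -0.53 for Bak1 and -0.13 for Bid, and the Bcl2l1 interaction was 0.015. Leaving out arrays gave ranges at 4 h of -0.13 to 0.011 for Bcl2, -0.078 to 0.084 for Mcl1, -0.18 to 0.27 for Bbc3, -0.023 to 0.59 for Pmaip1 and -0.36 to 0.57 for Bak1. At 8 h they were -0.14 to 0.019 for Mcl1, -0.050 to 0.15 for Bcl2l11, -0.44 to 0.040 for Bbc3, -0.014 to 0.60 for Pmaip1 and -0.23 to 0.70 for Bak1. Between 8 h and 4 h they were -0.16 to 0.18 for Bcl2l1, -0.14 to 0.0083 for Mcl1, -0.24 to 0.26 for Pmaip1, -0.17 to 0.43 for Bak1 and -0.19 to 0.26 for Bid. Between genotypes the range was -0.19 to 0.32 for Bak1, and leaving out either array of a time gave the same estimate.

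No paired analysis was possible because the labels carry no replicate numbers, with 1 array for each genotype and time, and the additive model already compares genotypes within each time. Signal over background limits Bak1 and the dimmer probe sets.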
